A study of Homo sapiens with 18 samples.

Results

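The mitochondrial ribosomal proteins were taken as every gene of the deposited table whose symbol is MRPL or MRPS followed by a number and, in a few cases, the letter A or B. The rule found 77 genes, 49 with an MRPL symbol and 28 with an MRPS symbol, of 37347 rows in all, and it takes no pseudogene. The RNA came from 16D, a human prostate cancer line that grows without androgen (castration-resistant), whose cells had received Cas9 and a guide RNA by lentivirus. There were 6 groups of 3 libraries each, 18 in all. In enzalutamide at 10 µM, an inhibitor of the androgen receptor, they were sgOGDHL_1, sgOGDHL_2 and sgAAVS, and the same guides were kept in DMSO vehicle, all for 6 weeks. sgOGDHL_1 and sgOGDHL_2 target OGDHL, a relative of the OGDH subunit of the 2-oxoglutarate dehydrogenase complex, and sgAAVS is the control guide, so every group carries Cas9. The labels do not say whether the cells of a guide were a clone or a pool, and they do not say that replicates came from separate cultures. The p-values below therefore reflect the scatter among these 18 libraries, part of which may be technical.

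The mitochondrial ribosome, or mitoribosome, makes the few proteins encoded by mitochondrial DNA, all of them subunits of the respiratory chain and ATP synthase. Its RNAs come from the mitochondrial genome, while all of its proteins are encoded in the nucleus, made in the cytosol and imported. It has a small subunit, which reads the mRNA, and a large subunit, which joins amino acids. Many of its proteins descend from those of the bacterial ribosome, and others were added in the course of mitochondrial evolution. By protein, 51 of the 77 genes encode large subunit proteins, and these include MRPS30 and MRPS18A in spite of their symbols. The small subunit has 25. MRPS36 is no longer counted as ribosomal, since its protein holds together parts of the 2-oxoglutarate dehydrogenase complex. Of the 76 ribosomal proteins, 45 have a bacterial counterpart and 31 do not.

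The promoters of 69 of the 77 genes were found in a RefSeq table (GRCh38.p14) that gives 250 bases before and 50 after each gene's start, 300 in all. The 120 bases before the start are printed here for 8 genes on which the results turn. MRPS18A had the largest fall in enzalutamide with sgAAVS, and MRPL58 fell in enzalutamide with sgAAVS and with sgOGDHL_1. MRPL27 is among the genes that varied most over the groups. MRPS34 was among the genes of highest level, and MRPL53 and MRPS26 had among the largest interactions of sgOGDHL_1 with enzalutamide. MRPL17 holds adjacent copies of the NRF1 core, and MRPS36 belongs to the complex of which OGDHL can form part. Capitals mark CCGGAAG, the core bound by ETS factors such as GABP, or TGCGCA, the core bound by NRF1, each read on either strand, so that CCGGAAG also appears as CTTCCGG.
MRPS18A, chr6:43687792-43687911, minus strand: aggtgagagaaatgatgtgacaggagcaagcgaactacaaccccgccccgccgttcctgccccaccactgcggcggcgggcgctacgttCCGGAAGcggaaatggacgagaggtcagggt
MRPL58, chr17:75012550-75012669, plus strand: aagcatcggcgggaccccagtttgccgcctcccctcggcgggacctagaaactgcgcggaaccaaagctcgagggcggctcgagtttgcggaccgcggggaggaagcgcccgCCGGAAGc
MRPL27, chr17:50373185-50373304, minus strand: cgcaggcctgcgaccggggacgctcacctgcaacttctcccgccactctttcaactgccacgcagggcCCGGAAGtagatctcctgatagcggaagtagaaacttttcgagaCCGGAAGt
MRPL17, chr11:6683341-6683460, minus strand: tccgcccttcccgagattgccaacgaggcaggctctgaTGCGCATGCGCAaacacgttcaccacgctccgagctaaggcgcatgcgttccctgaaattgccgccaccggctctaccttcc
MRPL53, chr2:74472681-74472800, minus strand: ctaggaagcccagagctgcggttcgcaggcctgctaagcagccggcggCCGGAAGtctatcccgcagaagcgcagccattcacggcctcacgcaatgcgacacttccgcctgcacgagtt
MRPS34, chr16:1773135-1773254, minus strand: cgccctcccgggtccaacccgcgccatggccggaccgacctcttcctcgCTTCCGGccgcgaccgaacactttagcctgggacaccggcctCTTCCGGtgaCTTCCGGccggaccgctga
MRPS26, chr20:3045932-3046051, plus strand: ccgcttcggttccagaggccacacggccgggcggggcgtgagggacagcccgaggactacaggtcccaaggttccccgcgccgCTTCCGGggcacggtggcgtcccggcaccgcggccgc
MRPS36, chr5:69217640-69217759, plus strand: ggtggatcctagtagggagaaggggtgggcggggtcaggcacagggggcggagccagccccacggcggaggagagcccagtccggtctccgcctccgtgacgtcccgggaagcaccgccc

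CCGGAAG was found in the 300 bases of 28 of the 69 genes (40.6%, against 14.2% of 15843 protein-coding promoters of the same length). AAGATGGC, bound by YY1, was in 20 (29%, against 3.91%), and TGCGCA in 13 (18.8%, against 10.8%). The share with GGGCGG, bound by SP1, was 62.3%, against 58.5% of all promoters. CCAAT was in 27.5% of the 69, against 36.4% of all, and TATAAA in 4.35%, against 9.63%. CACGTG, the E-box bound by MYC among others, was in 8.70%, against 8.88%. Both strands were searched, and none of these motifs contains another. MRPS36 had neither of the 2 capitalised motifs in the printed stretch. These matches describe letters in a window and not binding.

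Values are given as rescaled TPM, that is, the deposited TPM (transcript abundance per length, scaled to a fixed sum) after the rows of the mitochondrial genome were dropped and each library was brought back to a sum of 1000000. Mitochondrial rows took 50.1% to 73.8% of the TPM of a library, with 73.8%, 69.9% and 57.2% in the 3 sgOGDHL_1 libraries in DMSO, against 53.6% to 55.4% in sgAAVS libraries in DMSO. A change is the difference in mean log2(rescaled TPM + 1), which understates the change of low genes. It was tested with limma over 16067 genes, and called where the Benjamini-Hochberg adjusted p was under 0.05. All 77 genes reached 1 TPM in all 18 libraries, so none was lost to the filter.

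The targeted gene OGDHL had 2.56, 2.62 and 2.30 TPM with sgOGDHL_1 in enzalutamide, 4.14, 4.33 and 4.35 TPM with sgOGDHL_2, and 7.63, 7.85 and 7.43 TPM with sgAAVS. In DMSO it had 1.93, 2.29 and 3.16 TPM with sgOGDHL_1, 6.17, 7.31 and 6.54 TPM in the libraries labelled sgOGDHL_2, and 4.68, 4.86 and 4.62 TPM with sgAAVS. OGDHL was therefore lower than with sgAAVS in 3 of the 4 comparisons and higher in the libraries labelled sgOGDHL_2 in DMSO. Those 3 libraries stood apart in other ways. Across the tested genes their log2 values correlated at 0.887 to 0.920 with libraries of other groups, while libraries of the other groups correlated with each other at 0.950 or more. Only 1407 to 1630 rows were at 0 in them, against 3042 to 4498 elsewhere. Luminal prostate markers (9 of 9 measured) summed to 2494 to 6277 TPM over all groups. Leukocyte markers summed to 21.8 to 27.5 TPM in the libraries labelled sgOGDHL_2 in DMSO, nearly all from CD68, against 0.772 to 1.84 TPM elsewhere, with 1 of the 5 markers past the filter. Neuroendocrine markers summed to at most 2.48 TPM, endothelial markers to at most 0.995 TPM and fibroblast markers to 8.64 to 19.5 TPM. The part of these differences in the results below was not tested. Results that use the libraries labelled sgOGDHL_2 in DMSO are given last.

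Levels of the 77 genes spanned a ratio of 341 between the highest and lowest mean over the 18 libraries, with a median of 36.9 TPM. TPM is per length, but which length was used for each gene was not tested, so levels of different genes may not be comparable. MRPL41, a large subunit protein without a bacterial counterpart, was highest with a mean of 779 TPM and values of 549 to 1040 TPM. MRPL51 (584 TPM), MRPS34 (487 TPM) and MRPL57 (481 TPM) followed, and none of the 3 has a bacterial counterpart. Together these 4 genes held 34.2% of the summed TPM of the 77, and the first 10 held 56.0%. The lowest means belonged to MRPS22 (2.29 TPM), MRPL33 (2.45 TPM), MRPS6 (2.82 TPM) and MRPS28 (2.92 TPM). MRPS6, MRPS28 and MRPL33 are counterparts of bacterial proteins, and MRPS22 is not. In the genome MRPL41 runs from base 137551199 to 137552555 of its chromosome, and MRPS22 from 139005806 to 139357223. The exons of MRPL33 and MRPL51 cover 1539 and 1551 bases. MRPL33 runs from 27771717 to 27988087, and MRPL51 from 6491886 to 6493841. The part of such spans in the order of levels was not tested. Within a library, MRPL51 was above MRPS34 in all 18, so these neighbours in the order were distinct. MRPL41 was above MRPL51 in 16 and MRPS34 above MRPL57 in 12. Among the lowest, MRPS28 was above MRPS6 in 8, MRPS6 above MRPL33 in 15 and MRPL33 above MRPS22 in 7, so the order of these neighbours changed between libraries. The median level was 36.9 TPM for large subunit genes and 37.4 TPM for small subunit genes, so the medians of both subunits were close. TPM was unequal between genes of a particle, with the limit on length given above.

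**Figure D1:**
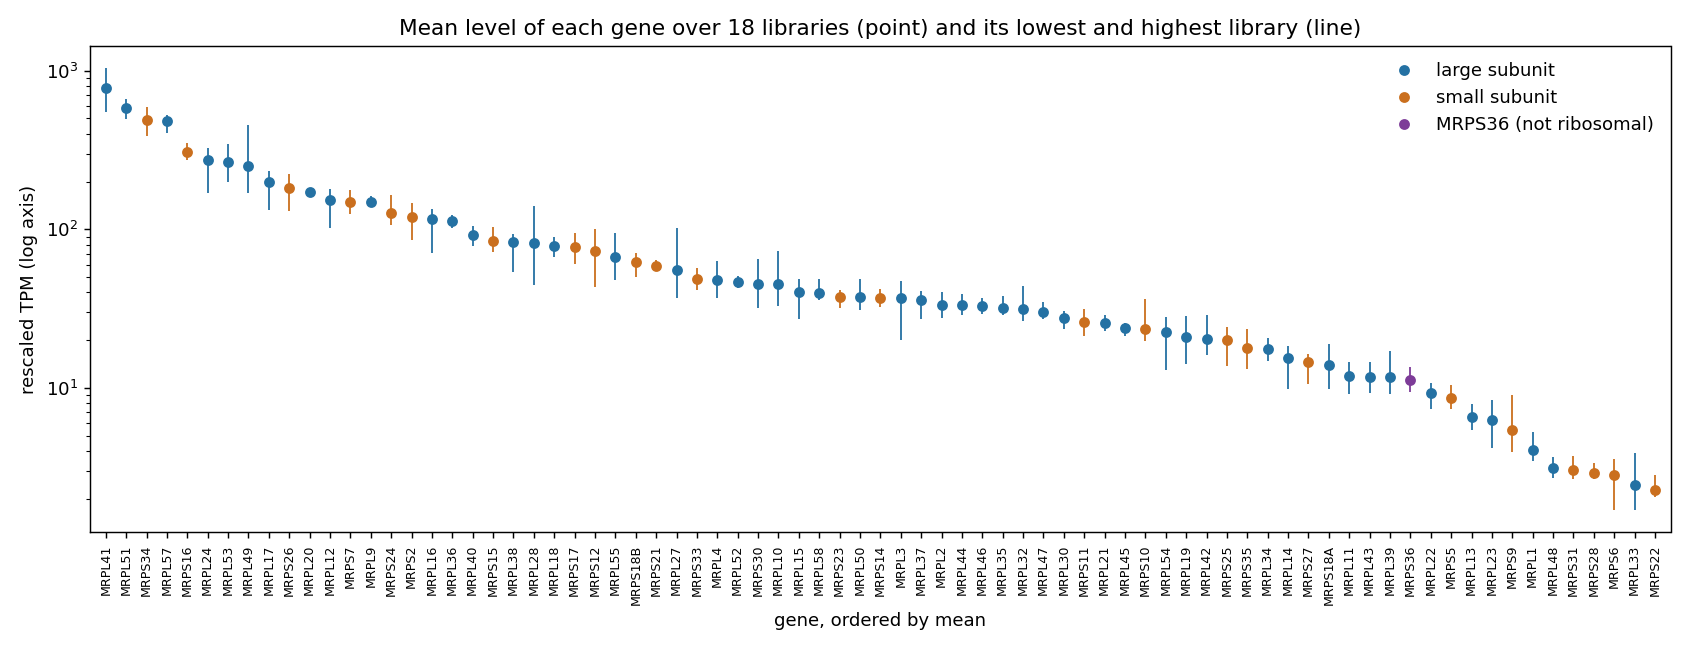
Mean rescaled TPM of each of the 77 genes over 18 libraries (points, log axis) with the lowest and highest library (lines), ordered by mean and coloured by subunit. MRPL41 was highest at 779 TPM and MRPS22 lowest at 2.29 TPM, and both subunits were spread over the whole range.

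The spread of a gene over the groups was small beside the range between genes. Over the 6 group means the median range of a gene was 0.47 (log2), and 0.32 without the libraries labelled sgOGDHL_2 in DMSO. MRPL20, a large subunit protein that in bacteria takes part in early assembly, varied least, with 165, 165 and 167 TPM with sgOGDHL_2 in enzalutamide and 175, 181 and 183 TPM with sgAAVS in DMSO (range 0.12). MRPL28 varied most, with a range of 1.26, and 4 genes (MRPL28, MRPL27, MRPL49 and MRPL3) went over 1. In each of these 4 the libraries labelled sgOGDHL_2 in DMSO were at one end. Those libraries held the lowest group mean for 31 genes and the highest for 19.

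Summed over the 77 genes, the level was 6713, 6321 and 6320 TPM with sgAAVS in enzalutamide, against 7440, 7468 and 7507 TPM with sgAAVS in DMSO. With sgOGDHL_1 it was 7060, 6738 and 6819 TPM in enzalutamide, against 6314, 6753 and 7420 TPM in DMSO. With sgOGDHL_2 it was 6275, 6349 and 6427 TPM in enzalutamide, against 6975, 6998 and 6758 TPM in the libraries so labelled in DMSO. The sum was thus lower in every enzalutamide library than in every DMSO library with sgAAVS and with sgOGDHL_2, while with sgOGDHL_1 the drug groups overlapped. The sgOGDHL_1 libraries in DMSO ran opposite to their mitochondrial share, from 6314 TPM at 73.8% to 7420 TPM at 57.2%; its part in the sum was not tested. In enzalutamide, every sgOGDHL_1 library was above every sgAAVS library.

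Set against the 87 cytosolic ribosomal protein genes, the 77 summed to 10.2% to 10.4% of that total with sgAAVS in enzalutamide, against 12.1% to 12.2% with sgAAVS in DMSO. With sgOGDHL_1 the share was 11.7% to 11.9% in enzalutamide, against 11.8% to 12.2% in DMSO. With sgOGDHL_2 it was 10.4% to 10.5% in enzalutamide, against 13.4% to 13.5% in the libraries so labelled in DMSO. The share was thus lower in enzalutamide with sgAAVS and with sgOGDHL_2, without overlap, and the ranges overlapped with sgOGDHL_1. The ratio of summed large to small subunit genes was 2.34 to 2.39 with sgAAVS in enzalutamide and 2.25 to 2.28 with sgAAVS in DMSO. It was 2.36 to 2.39 with sgOGDHL_1 in enzalutamide and 2.20 to 2.27 in DMSO. With sgOGDHL_2 the ratio was 2.49 to 2.51 in enzalutamide and 2.95 to 3.00 in the libraries so labelled in DMSO. The large subunit sum therefore exceeded the small subunit sum in every library. These sums hold 51 and 25 genes, so the size of the ratio depends on the number of genes in each. In both comparisons that do not use the libraries labelled sgOGDHL_2 the ratio was higher in enzalutamide than in DMSO, with no overlap.

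**Figure D2:**
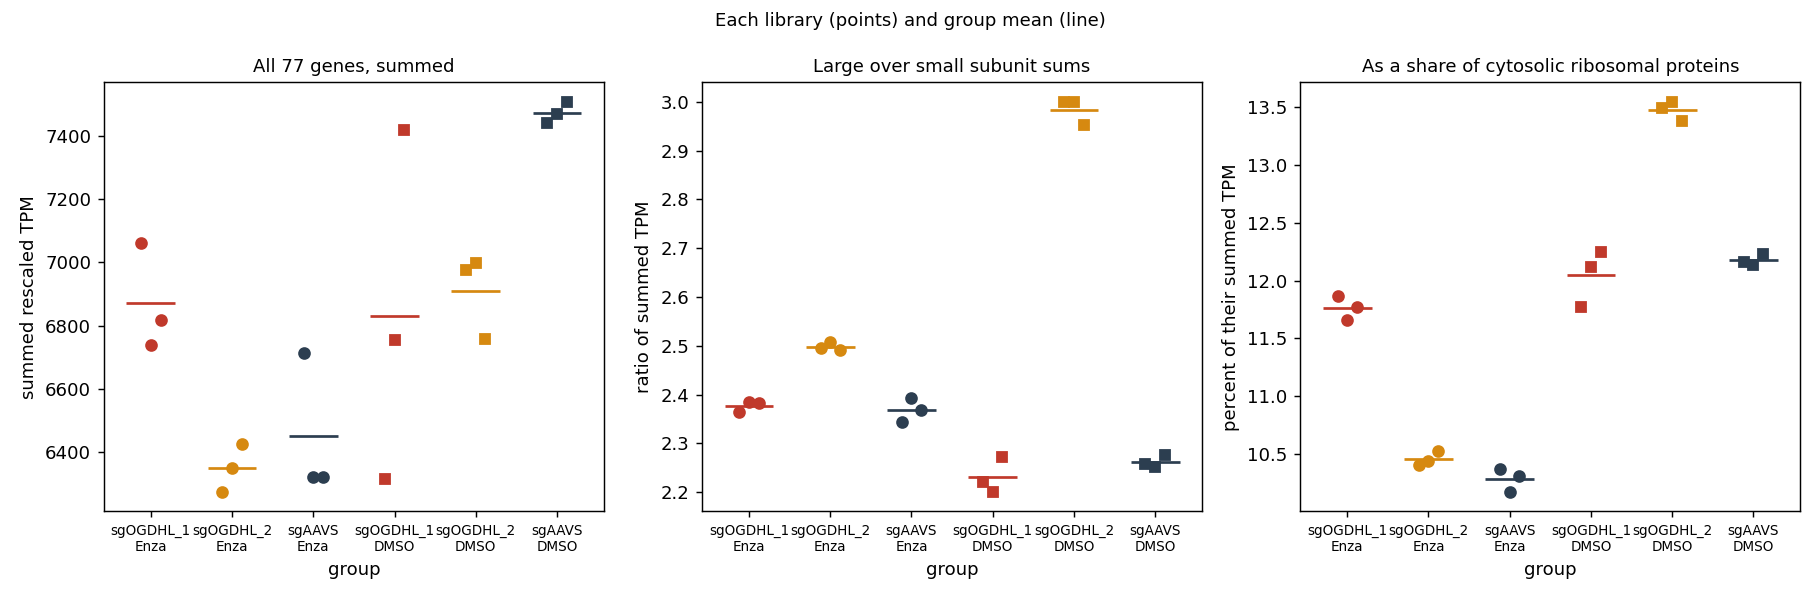
Summed rescaled TPM of the 77 genes, ratio of large to small subunit sums, and the sum as a percent of cytosolic ribosomal proteins, for each library (points; circles, enzalutamide; squares, DMSO) with group means (lines); the axes do not start at 0. With sgAAVS the sum was 6320 to 6713 TPM in enzalutamide and 7440 to 7507 TPM in DMSO, and the libraries labelled sgOGDHL_2 in DMSO had the highest ratio, 2.95 to 3.00.

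The first comparison asks what 6 weeks of enzalutamide did in cells with the control guide. Mitoribosomal protein genes were mostly lower: 36 of 77 fell and 1 rose, while 24.8% of all tested genes fell and 23.1% rose. Their median change was -0.15 (log2), against -0.01 over all tested genes. In bulk RNA such a difference cannot be told apart between fewer cells of a type and less RNA per cell. Both subunits took part, with 24 of 51 large subunit genes down and none up (median -0.15), and 11 of 25 small subunit genes down and 1 up (median -0.13). In 54 genes every enzalutamide library lay below every DMSO library, which held for 33.6% of all tested genes, and in 7 every one lay above, which held for 30.0%. Genes with a bacterial counterpart (20 of 45 down) and without one (15 of 31 down) had like medians, -0.15 and -0.14. By level, 23 of the 38 genes of higher mean fell, and 13 of the 39 of lower mean.

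MRPS18A, a large subunit protein related to bacterial S18 whose pseudogene row held 54.8% of its level, fell furthest. It had 10.9, 9.89 and 10.2 TPM with sgAAVS in enzalutamide, against 16.6, 16.0 and 17.2 TPM in DMSO, with no overlap (-0.64 ± 0.06 SE, limma adjusted p = 7.1e-07). MRPL4, which lines the exit tunnel for the growing protein, had 48.0, 43.3 and 41.0 TPM in enzalutamide, against 60.1, 63.4 and 63.5 TPM in DMSO (-0.49 ± 0.07, adjusted p = 5.5e-05). All 3 drug libraries were below the lowest DMSO library. MRPS24, counterpart of bacterial S3 at the site where mRNA enters, had 124, 109 and 112 TPM in enzalutamide, against 161, 159 and 165 TPM in DMSO (-0.49 ± 0.09, adjusted p = 4.5e-04). MRPS12, counterpart of the bacterial S12 protein of the decoding centre, had 76.2, 68.7 and 65.7 TPM in enzalutamide, against 94.7, 92.6 and 100 TPM in DMSO (-0.45 ± 0.17, adjusted p = 0.048). Its groups did not overlap, but the error was the widest of these genes and its p the nearest to the threshold. That error pools the scatter of all 6 groups, including sgOGDHL_1 in DMSO, where MRPS12 had 43.3, 60.0 and 90.4 TPM.

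The abundant members moved as well. MRPS34, a small subunit protein without a bacterial counterpart, had 491, 452 and 454 TPM with sgAAVS in enzalutamide, against 581, 590 and 586 TPM in DMSO (-0.33 ± 0.04, limma adjusted p = 3.5e-06). MRPL57 had 425, 403 and 408 TPM in enzalutamide, against 520, 510 and 528 TPM in DMSO (-0.33 ± 0.04, adjusted p = 8.0e-06). MRPL51 had 558, 540 and 521 TPM in enzalutamide, against 660, 645 and 655 TPM in DMSO (-0.28 ± 0.04, adjusted p = 6.6e-05). Each of these was lower in all 3 drug libraries by more than the spread between replicates. MRPL41, the gene of highest level, fell also (-0.36 ± 0.10, adjusted p = 0.0079), with 732, 669 and 664 TPM in enzalutamide against 890, 883 and 882 TPM in DMSO.

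MRPS7, which binds the head of the small subunit, had 131, 125 and 129 TPM with sgAAVS in enzalutamide, against 169, 173 and 169 TPM in DMSO (-0.41 ± 0.05, limma adjusted p = 3.2e-06). MRPL58, a peptidyl-tRNA hydrolase built into the large subunit that frees stalled chains, had 38.3, 36.0 and 36.7 TPM in enzalutamide, against 44.8, 43.8 and 44.5 TPM in DMSO (-0.26 ± 0.04, adjusted p = 5.3e-05). MRPS5, at the mRNA entry side, fell by 0.22 (SE 0.05, adjusted p = 0.0013), and MRPL44, which has a ribonuclease III fold, fell by 0.14 (SE 0.04, adjusted p = 0.015). In the stalk that recruits translation factors, MRPL11 fell by 0.30 (SE 0.07, adjusted p = 0.0027) and MRPL10 fell by 0.25 (SE 0.08, adjusted p = 0.020). MRPL12, the stalk protein that contacts those factors, was not called (-0.09 ± 0.13, adjusted p = 0.62), with 177, 164 and 164 TPM in enzalutamide against 180, 176 and 181 TPM in DMSO. Its error also takes in the scatter of sgOGDHL_1 in DMSO, with 102, 123 and 176 TPM.

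The gene that rose was MRPS6, counterpart of bacterial S6 in the small subunit. It had 3.48, 3.56 and 3.37 TPM with sgAAVS in enzalutamide, against 2.88, 2.85 and 2.94 TPM in DMSO (0.20 ± 0.04, limma adjusted p = 3.9e-04). The groups did not overlap, at a level among the lowest of the 77. Among genes described in every comparison, those not called here were MRPS30 (0.00 ± 0.09, adjusted p = 0.99), MRPS18B (-0.00 ± 0.07, adjusted p = 0.99) and MRPS27 (-0.08 ± 0.05, adjusted p = 0.19). With the rows of the mitochondrial genome kept in the TPM, 3 of the 77 were called, all lower (median -0.18, against -0.05 over all genes). Mitochondrial rows held 50.3%, 60.2% and 56.9% of the TPM of these enzalutamide libraries and 53.6%, 55.4% and 54.4% of the DMSO libraries.

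**Figure D3:**
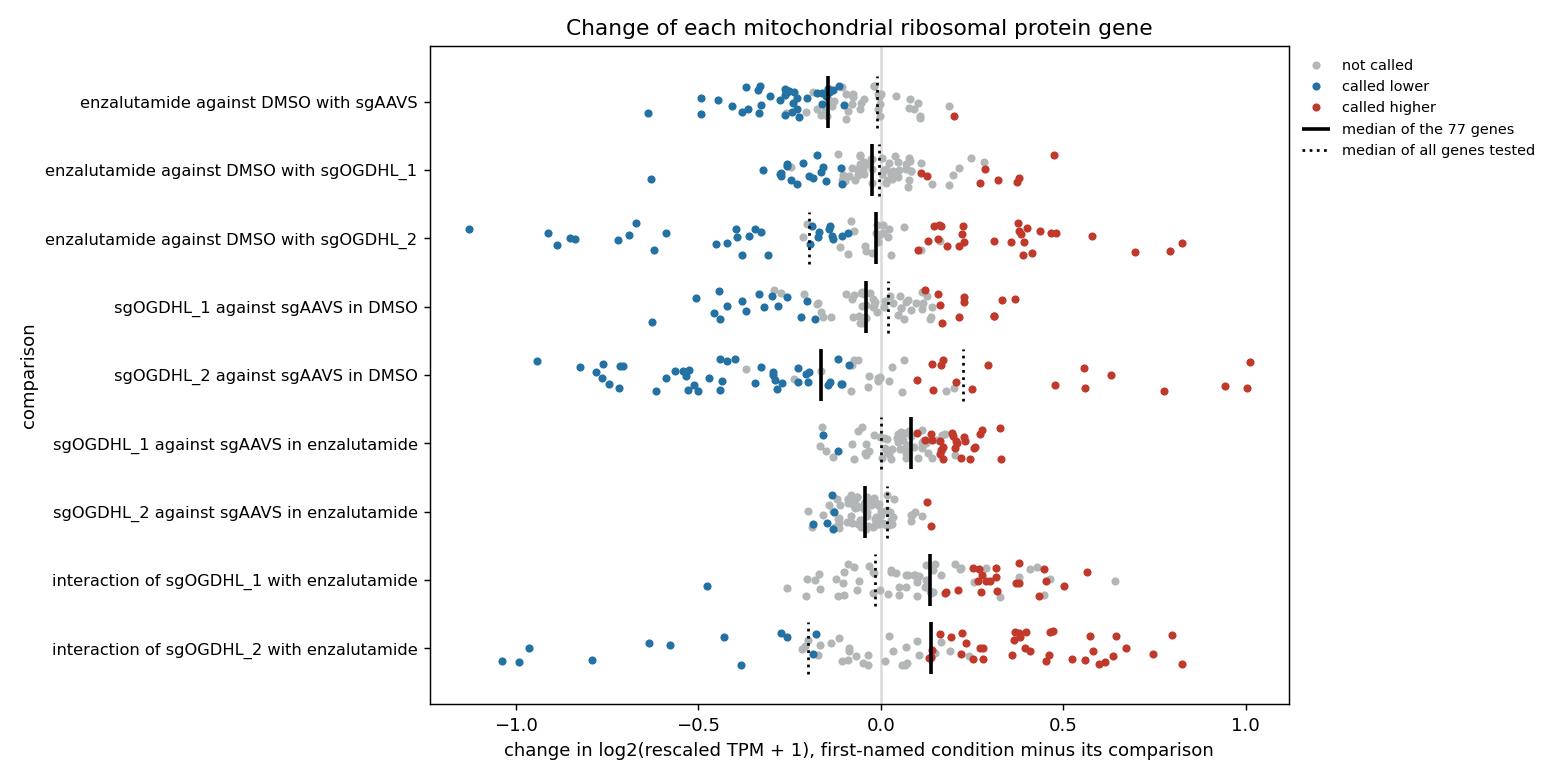
Change of each of the 77 genes in log2(rescaled TPM + 1) in the 9 comparisons (points; red, called higher; blue, called lower; grey, not called), with the median of the 77 (solid line) and of all 16067 tested genes (dotted line). With sgAAVS, enzalutamide gave 36 lower and 1 higher, and in enzalutamide sgOGDHL_1 gave 24 higher and 2 lower than sgAAVS.

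With sgOGDHL_1, 18 of 77 genes were lower in enzalutamide than in DMSO and 8 were higher, while 23.3% of all tested genes fell and 19.5% rose. The median change was -0.02, against -0.00 over all tested genes. Every drug library lay below every DMSO library in 15 genes (22.9% of all tested genes) and above in 6 (18.5%), so both counts of lower genes were near the background. Fitted with these 6 libraries alone, 3 genes were called, all lower. With the rows of the mitochondrial genome kept, 12 were called higher and 1 lower, and the changes of MRPL58 (0.059) and MRPL4 (0.062), which are lower in the values below, turned direction. MRPS9, counterpart of bacterial S9 in the small subunit, had 4.49, 4.34 and 4.74 TPM with sgOGDHL_1 in enzalutamide, against 8.99, 7.97 and 5.92 TPM in DMSO (-0.63 ± 0.09, limma adjusted p = 7.9e-05). MRPL58 had 38.1, 37.2 and 38 TPM in enzalutamide, against 48.3, 46.2 and 43.5 TPM in DMSO (-0.28 ± 0.04, adjusted p = 4.5e-05). Both were lower in every drug library, and MRPS9 varied widely among the DMSO libraries. MRPS18A fell by 0.32 (SE 0.06, adjusted p = 7.7e-04) and MRPL4 fell by 0.27 (SE 0.07, adjusted p = 0.0077).

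Among the genes that rose, MRPL28, a large subunit protein with a bacterial counterpart, had 81.4, 78.1 and 75.4 TPM with sgOGDHL_1 in enzalutamide, against 44.8, 55.5 and 70.5 TPM in DMSO (0.48 ± 0.11, limma adjusted p = 0.0025). MRPL14, at the interface between the subunits, had 17.0, 17.3 and 16.5 TPM in enzalutamide, against 9.84, 12.6 and 16.7 TPM in DMSO (0.38 ± 0.12, adjusted p = 0.016). MRPL12 rose by 0.37 (SE 0.13, adjusted p = 0.033) and MRPL24, near the tunnel exit, rose by 0.32 (SE 0.09, adjusted p = 0.0087). In each of these 4 the DMSO libraries 1 and 2, with 73.8% and 69.9% mitochondrial TPM, were the low ones, and library 3, with 57.2%, was near the drug libraries. With library 3 as the only one of its group, none of the 4 was called and MRPL12 was at -0.06. In that fit, chosen after seeing the data, 20 genes fell and 2 rose, with a median of -0.07 against -0.04 over all genes. With library 3 left out instead, 25 fell and 21 rose.

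The interaction, that is, the enzalutamide change with sgOGDHL_1 less that with sgAAVS, tests whether the drug changes differed. It was positive in 21 of the 77 genes called and negative in 1, while 11.6% of all tested genes were called positive and 15.2% negative. The median was 0.13, against -0.01 over all genes. When the rows of the mitochondrial genome were kept, 1 gene was called (48 had an unadjusted p under 0.05), and 14 were called, all positive, when the 4 groups were fitted alone. Of the large subunit genes 15 of 51 were called positive and none negative, and of the small subunit genes 5 of 25 positive and 1 negative; MRPS36 made up the rest. Of the 36 genes that fell in enzalutamide with sgAAVS, 10 also fell with sgOGDHL_1, 24 were not called and 2 rose. The 36 were picked by passing the threshold with sgAAVS, so some would miss it in another comparison in any case. The like share over all tested genes was not computed. With sgOGDHL_1 DMSO library 3 as the only one of its group, 18 genes were called, all positive, with a median of 0.09 against -0.05 over all genes. With library 3 left out, 40 were called positive and 8 negative.

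MRPL14 had the largest called interaction (0.57 ± 0.16, limma adjusted p = 0.020), with 16.2, 15.1 and 15 TPM with sgAAVS in enzalutamide against 17.4, 17.3 and 18.4 TPM in DMSO. It was 0.20 (adjusted p = 0.029) with library 3 alone in its group. MRPL53, a large subunit protein without a bacterial counterpart, had 276, 281 and 267 TPM with sgOGDHL_1 in enzalutamide, against 199, 216 and 272 TPM in DMSO. With sgAAVS it had 244, 234 and 237 TPM in enzalutamide, against 281, 274 and 282 TPM in DMSO, and the interaction was 0.50 ± 0.12 (adjusted p = 0.0063), or 0.24 (adjusted p = 0.027) with library 3 alone. MRPS26 had an interaction of 0.45 ± 0.14 (adjusted p = 0.029), which was 0.13 (adjusted p = 0.13) with library 3 alone. MRPL27, near the site of peptide bond formation, had 0.45 ± 0.10 (adjusted p = 0.0047), or 0.24 (adjusted p = 0.018). MRPS9 was the negative one (-0.48 ± 0.13, adjusted p = 0.015), and -0.18 (adjusted p = 0.075) with library 3 alone. All 5 values were smaller without the 2 DMSO libraries of high mitochondrial share, whose part in them was not tested.

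For other genes the DMSO libraries of both guides lay close together, and those in enzalutamide did not. MRPL39, which has a domain like a threonyl-tRNA synthetase, had 11.9, 11.6 and 11.9 TPM with sgOGDHL_1 in enzalutamide, against 11.8, 10.8 and 10.9 TPM in DMSO. With sgAAVS it had 9.17, 9.26 and 9.14 TPM in enzalutamide, against 10.9, 10.8 and 11.4 TPM in DMSO, and its interaction was 0.32 ± 0.06 (limma adjusted p = 7.8e-04). MRPS7 had an interaction of 0.32 ± 0.06 (adjusted p = 0.0023), MRPL33 of 0.30 ± 0.05 (adjusted p = 3.5e-04) and MRPL57 of 0.29 ± 0.06 (adjusted p = 0.0023). Between sgOGDHL_1 and sgAAVS in DMSO none of these 4 was called, with changes of 0.01, -0.05, -0.02 and -0.06 in that order.

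**Figure D4:**
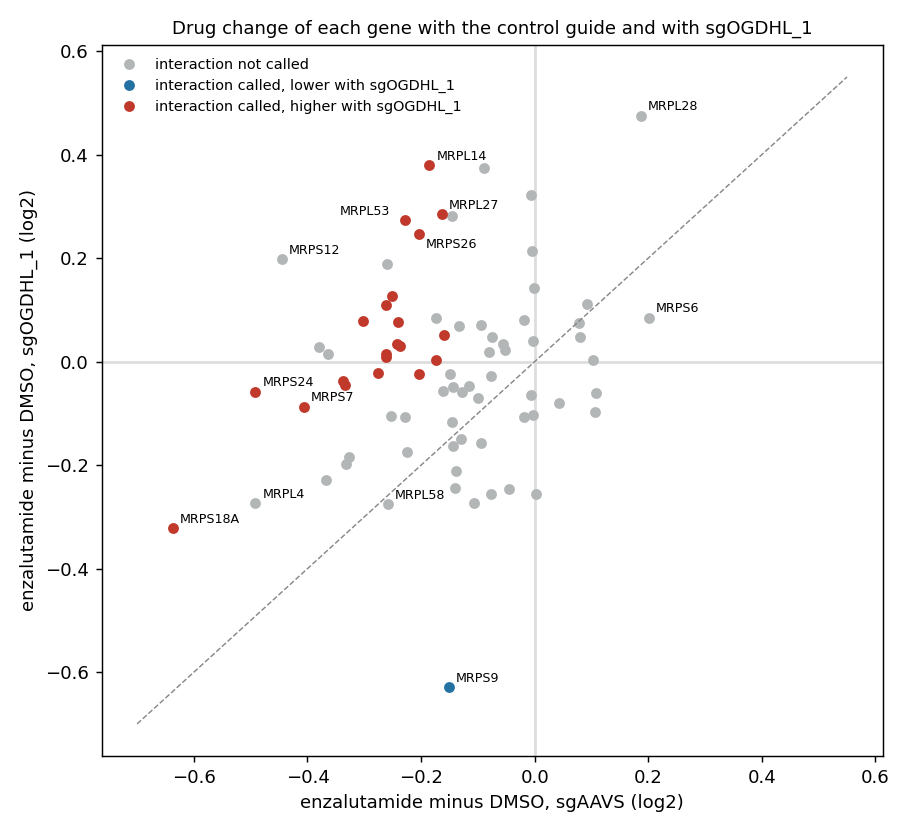
Change in enzalutamide against DMSO (log2) with sgOGDHL_1 (y) against that with sgAAVS (x) for each of the 77 genes, coloured by the call of the interaction; the dashed line marks equal changes. The 21 genes with a positive interaction lie above the line, and MRPS9, at -0.63 with sgOGDHL_1, lies below it.

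In enzalutamide itself, sgOGDHL_1 cells had higher mitoribosomal protein mRNA than sgAAVS cells: 24 of 77 genes were higher and 2 lower, while 16.3% of all tested genes were higher and 14.3% lower. The median change was 0.08, against 0.00 over all tested genes. In 39 genes every sgOGDHL_1 library lay above every sgAAVS library, which held for 25.3% of all genes, and in 5 every one lay below (24.3%). Large subunit genes gave 16 of 51 higher and 1 lower (median 0.11), and small subunit genes 7 of 25 higher and 1 lower (median 0.07). The mitochondrial share was 57.7% to 60.4% with sgOGDHL_1 and 50.3% to 60.2% with sgAAVS. In a fit that left out the sgOGDHL_1 libraries in DMSO, chosen after seeing the data, 36 were higher and 5 lower. With the rows of the mitochondrial genome kept, none was called by limma (2 had an unadjusted p under 0.05), and the median was -0.01 against -0.06 over all genes.

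MRPL39 was higher by 0.33 ± 0.04 (limma adjusted p = 1.6e-05). MRPL35, a counterpart of bacterial L35 with pseudogene rows at 36.7% of its level, had 37.8, 33.8 and 38.1 TPM with sgOGDHL_1, against 28.8, 29.1 and 28.7 TPM with sgAAVS (0.33 ± 0.05, adjusted p = 1.2e-04). MRPL33, a counterpart of bacterial L33, had 2.34, 2.32 and 2.32 TPM with sgOGDHL_1, against 1.71, 1.75 and 1.77 TPM with sgAAVS (0.28 ± 0.03, adjusted p = 1.7e-05). The replicates of MRPL33 lay close together in both groups, and the groups were far apart beside that spread. MRPS7 had 163, 152 and 150 TPM with sgOGDHL_1, against 131, 125 and 129 TPM with sgAAVS (0.27 ± 0.05, adjusted p = 3.6e-04). MRPL57 (0.23 ± 0.04, adjusted p = 6.2e-04), MRPS18A (0.22 ± 0.06, adjusted p = 0.014), MRPL51 (0.20 ± 0.04, adjusted p = 0.0023), MRPL44 (0.17 ± 0.04, adjusted p = 0.0090) and MRPS5 (0.16 ± 0.05, adjusted p = 0.018) were higher too. The lower genes were MRPS6, with 3.11, 2.86 and 3.04 TPM with sgOGDHL_1 against 3.48, 3.56 and 3.37 TPM with sgAAVS (-0.16 ± 0.04, adjusted p = 0.0045), and MRPL45, which sits at the tunnel exit near the inner membrane (-0.12 ± 0.04, adjusted p = 0.037). This comparison shares its sgAAVS libraries with that of enzalutamide against DMSO, so the values of a gene in both are not independent.

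In DMSO, sgOGDHL_1 against sgAAVS gave 11 of 77 genes higher and 16 lower, while 21.1% of all tested genes were higher and 11.1% lower. The median was -0.04, against 0.02 over all genes. Every sgOGDHL_1 library lay above every sgAAVS library in 13 genes (22.2% of all tested genes) and below in 17 (8.55%). MRPS12 was lowest, with 43.3, 60.0 and 90.4 TPM with sgOGDHL_1, against 94.7, 92.6 and 100 TPM with sgAAVS (-0.63 ± 0.17, limma adjusted p = 0.025). MRPL54 had 13, 17.9 and 23.8 TPM with sgOGDHL_1, against 25.6, 24.3 and 26.8 TPM with sgAAVS (-0.50 ± 0.14, adjusted p = 0.024). MRPL32, whose maturation by a mitochondrial protease precedes assembly, was highest, with 44.0, 37.2 and 28.8 TPM with sgOGDHL_1, against 27.5, 28.9 and 27.0 TPM with sgAAVS (0.37 ± 0.10, adjusted p = 0.025). In all 3 the values of sgOGDHL_1 followed the mitochondrial share of the library, with library 3 nearest to sgAAVS; the part of that share was not tested. MRPL12 (-0.46 ± 0.13, adjusted p = 0.026) and MRPL23 (-0.44 ± 0.12, adjusted p = 0.022) were lower, and MRPS30 (0.33 ± 0.09, adjusted p = 0.024), MRPS9 (0.31 ± 0.09, adjusted p = 0.029) and MRPL42 (0.31 ± 0.10, adjusted p = 0.032) were higher. With the rows of the mitochondrial genome kept, 68 genes were called, all lower, and MRPL32 (-0.11), MRPS30 (-0.15), MRPS9 (-0.10) and MRPL42 (-0.15) turned direction, so their being higher rests on leaving those rows out. Fitted with these 6 libraries alone, none was called by limma (15 had an unadjusted p under 0.05). No gene of the 77 was called with library 3 as the only one of its group, and 52 were called with it left out. None was called by limma without sgAAVS replicate 1 or 3, or without sgOGDHL_1 replicate 1 or 2, where 25 to 32 had an unadjusted p under 0.05. With library 3 alone that number was 4.

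Few genes were called between sgOGDHL_2 and sgAAVS in enzalutamide: 2 of 77 genes were higher and 5 lower, while 8.97% of all tested genes were higher and 5.02% lower. The median was -0.04, against 0.02 over all genes. In 31 genes every sgOGDHL_2 library lay below every sgAAVS library, which held for 17.7% of all genes, and in 5 every one lay above (25%). MRPL46, a large subunit protein without a bacterial counterpart, had 29.1, 29.5 and 29.1 TPM with sgOGDHL_2, against 33.5, 33.3 and 33.3 TPM with sgAAVS (-0.19 ± 0.04, limma adjusted p = 0.0091). MRPL17, at the tunnel exit, had 178, 181 and 188 TPM with sgOGDHL_2, against 209, 197 and 201 TPM with sgAAVS (-0.15 ± 0.03, adjusted p = 0.011). Neither gene's groups overlapped. MRPL13 (-0.13 ± 0.04, adjusted p = 0.040), MRPS6 (-0.13 ± 0.04, adjusted p = 0.029) and MRPS34 (-0.13 ± 0.04, adjusted p = 0.036) were lower as well. MRPL57 (0.14 ± 0.04, adjusted p = 0.037) and MRPL39 (0.13 ± 0.04, adjusted p = 0.043) were higher, and with sgOGDHL_1 these genes had 0.23 and 0.33. With the rows of the mitochondrial genome kept, none was called by limma (2 had an unadjusted p under 0.05), and 13 were called with these 6 libraries fitted alone. The count of 7 became 16 in the fit without the sgOGDHL_1 libraries in DMSO and 11 without library 3 of that group. It was 3 without sgAAVS DMSO replicate 1, sgAAVS enzalutamide replicate 2 or 3 or sgOGDHL_1 enzalutamide replicate 3. It was 2 without sgAAVS enzalutamide replicate 1 or sgOGDHL_2 enzalutamide replicate 3, and 1 without sgOGDHL_2 enzalutamide replicate 1 or 2.

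The libraries labelled sgOGDHL_2 in DMSO, which stood apart as described, gave 16 of 77 genes higher and 42 lower than sgAAVS in DMSO, while 50.9% of all tested genes were higher and 24.0% lower. The median of the 77 was -0.16, against 0.23 over all genes, a difference of -0.39. Every library so labelled lay above every sgAAVS library in 19 genes (54.1% of all tested genes) and below in 48 (27.4%). With median-of-ratios scaling, which moves the median of all genes to 0.02, 8 were higher and 59 lower (median -0.41). Keeping the rows of the mitochondrial genome gave 8 higher and 26 lower. Small subunit genes gave 4 of 25 higher and 16 lower (median -0.30), and large subunit genes 12 of 51 higher and 25 lower (median -0.09). MRPL28 had 137, 140 and 137 TPM in the libraries labelled sgOGDHL_2, against 67.1, 69.0 and 67.5 TPM with sgAAVS (1.01 ± 0.11, limma adjusted p = 6.1e-07). MRPL49 had 434, 453 and 413 TPM, against 211, 221 and 215 TPM with sgAAVS (1.00 ± 0.08, adjusted p = 1.2e-08). MRPL3, counterpart of the L3 protein near the site of peptide bond formation and with a pseudogene row at 397% of its level, had 20.2, 20.1 and 22.0 TPM, against 40.4, 42.0 and 40.0 TPM with sgAAVS (-0.94 ± 0.05, adjusted p = 2.5e-10). Single genes thus went both ways by about the same size, far beyond the spread between replicates.

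MRPL27 (0.94 ± 0.07, limma adjusted p = 1.2e-08) and MRPS10 (0.78 ± 0.05, adjusted p = 5.4e-09) were also higher in the libraries labelled sgOGDHL_2 in DMSO. MRPL23, whose bacterial counterpart docks factors at the tunnel exit (-0.82 ± 0.12, adjusted p = 1.2e-05), MRPL24 (-0.78 ± 0.09, adjusted p = 1.1e-06) and MRPL16, which contacts tRNA in the large subunit (-0.76 ± 0.04, adjusted p = 4.4e-11), were lower. Enzalutamide against DMSO with sgOGDHL_2 gave 27 of 77 higher and 29 lower, while 23.0% of all genes were higher and 49.7% lower, and it shares those DMSO libraries. The groups did not overlap in 30 genes that were higher (26.6% of all genes) and in 35 that were lower (54.4%). Its median of -0.01, against -0.20 over all genes, was 0.18 with median-of-ratios scaling, where 48 were higher and 14 lower, so its direction rests on the scaling. Keeping the rows of the mitochondrial genome gave 4 higher and 19 lower. MRPL16 had 131, 125 and 131 TPM with sgOGDHL_2 in enzalutamide, against 73.2, 72.3 and 71.0 TPM in DMSO (0.83 ± 0.04, adjusted p = 1.9e-11). MRPL27 had 44.9, 44.8 and 44.8 TPM in enzalutamide, against 99.8, 103 and 95.3 TPM in DMSO (-1.13 ± 0.07, adjusted p = 1.8e-09). In both genes the enzalutamide libraries overlapped those of sgAAVS in enzalutamide, where MRPL16 had 134, 129 and 128 TPM and MRPL27 had 47.0, 45.0 and 44.5 TPM. MRPL24 (0.79), MRPL3 (0.70) and MRPS6 (0.58) were higher too, and MRPL49 (-0.91), MRPL10 (-0.89) and MRPL28 (-0.85) lower. The interaction of sgOGDHL_2 with enzalutamide was positive in 36 genes and negative in 12 (19.5% and 43.7% of all genes), with a median of 0.14 against -0.20 over all genes. It was positive in 3 and negative in 8 with the rows of the mitochondrial genome kept.

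**Figure D5:**
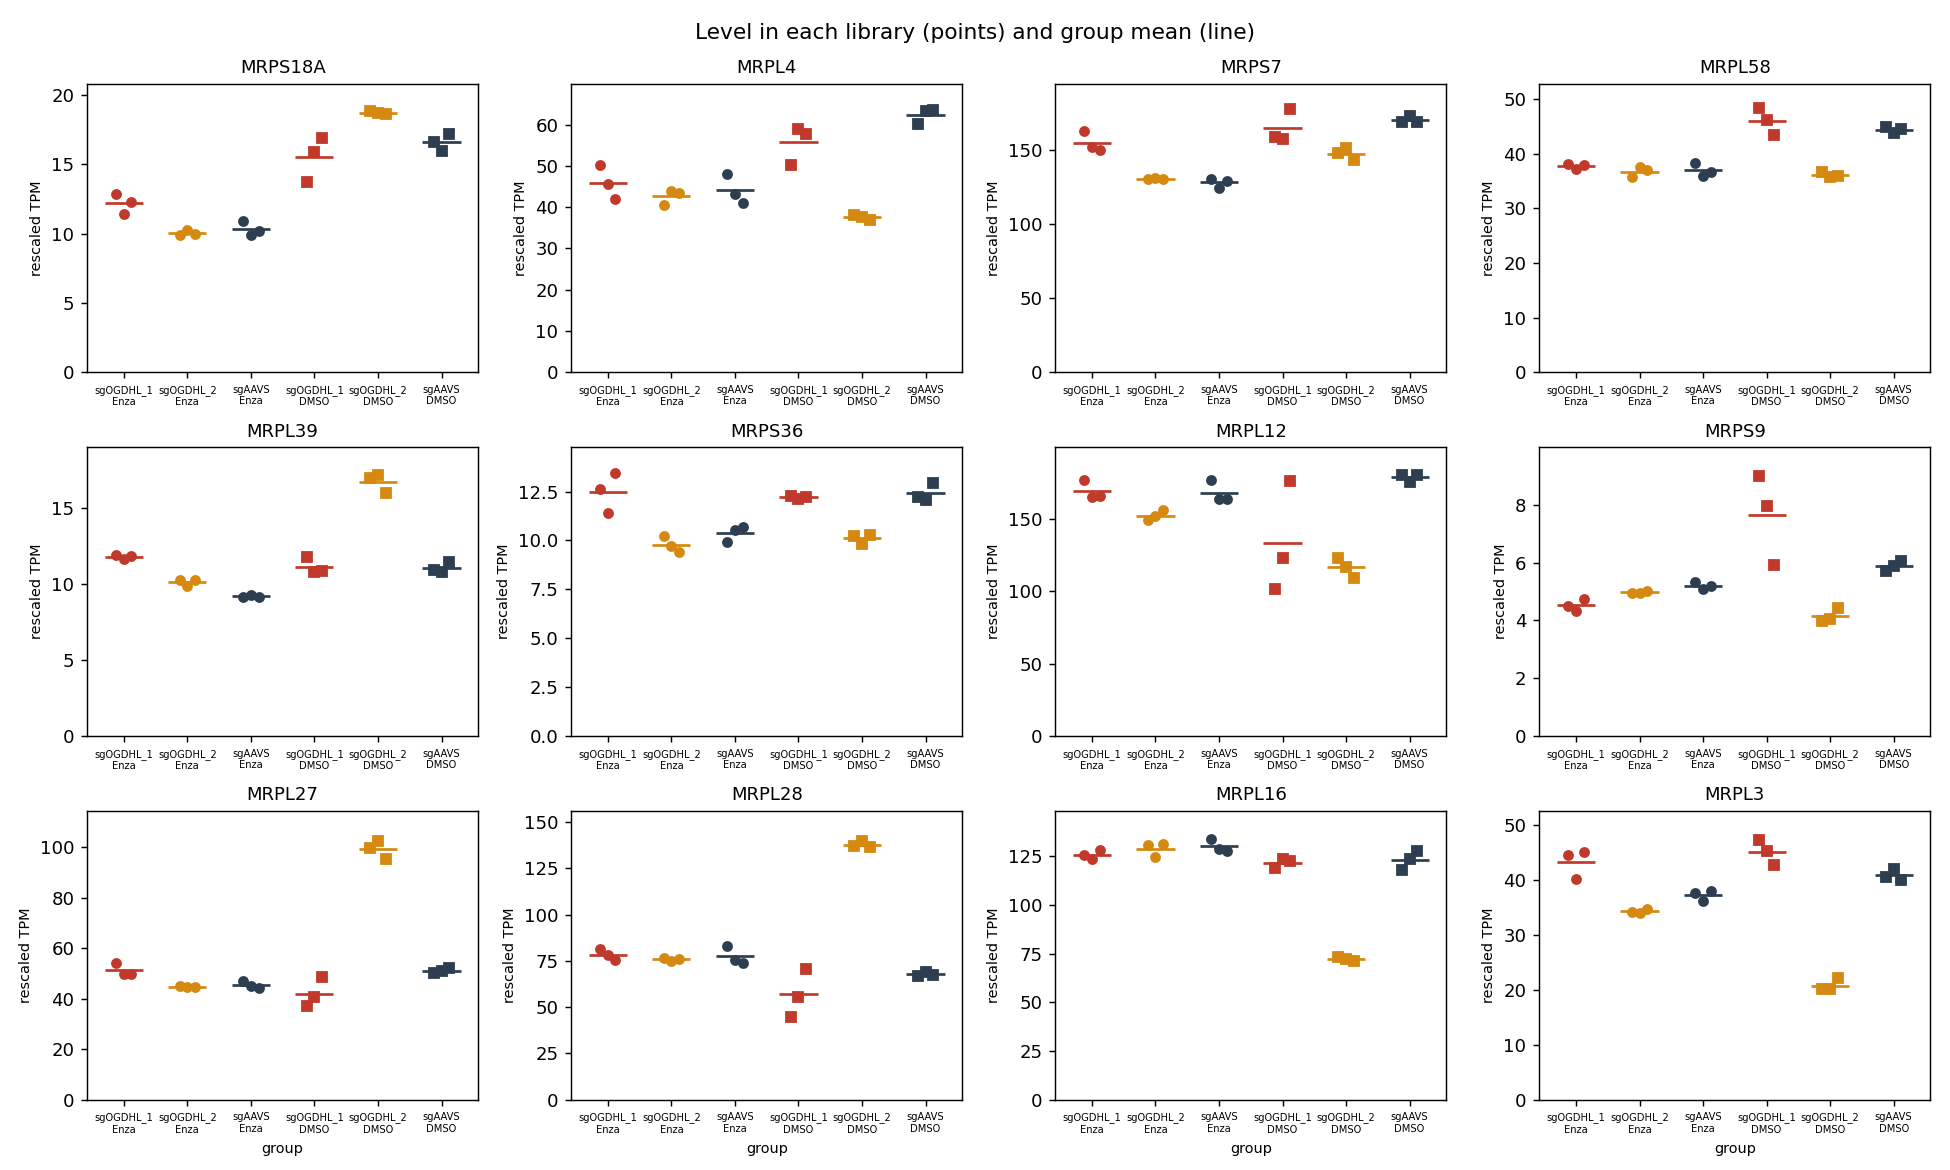
Rescaled TPM of 12 of the genes in each of the 18 libraries (points; circles, enzalutamide; squares, DMSO) with group means (lines). MRPS18A, MRPS7 and MRPL39 were lower with sgAAVS in enzalutamide than in DMSO without overlap, the 3 sgOGDHL_1 DMSO values of MRPL12 and MRPS9 are spread widely, and MRPL27, MRPL28, MRPL16 and MRPL3 set the libraries labelled sgOGDHL_2 in DMSO apart.

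MRPS36, which tethers the E3 component to the 2-oxoglutarate dehydrogenase complex, had 9.90, 10.6 and 10.7 TPM with sgAAVS in enzalutamide, against 12.2, 12 and 12.9 TPM in DMSO (-0.24 ± 0.05, limma adjusted p = 0.0015). With sgOGDHL_1 it had 12.6, 11.4 and 13.5 TPM in enzalutamide, against 12.2, 12.1 and 12.2 TPM in DMSO (0.03 ± 0.05, adjusted p = 0.67). With sgOGDHL_2 it had 10.2, 9.70 and 9.39 TPM in enzalutamide, against 10.2, 9.82 and 10.3 TPM in the libraries so labelled in DMSO. It was higher with sgOGDHL_1 than with sgAAVS in enzalutamide (0.24 ± 0.05, adjusted p = 0.0022), without overlap, and not called in DMSO (-0.02 ± 0.05, adjusted p = 0.77). These values are uncertain, since the pseudogene of MRPS36 had 926% of the TPM of the gene itself. TPM is per length, so this percent is not a share of reads. In the sum of gene and pseudogene, which is mostly pseudogene, the fall with sgAAVS was called (-0.34, adjusted p = 0.0040). The difference in enzalutamide was not (0.15, adjusted p = 0.21). Of the other genes of the complex, OGDH (-0.14, adjusted p = 0.11), DLST (-0.08, adjusted p = 0.51) and DLD (-0.05, adjusted p = 0.53) were not called in enzalutamide with sgAAVS, while OGDHL rose (0.59, adjusted p = 9.8e-05).

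Pseudogene rows were found for 26 of the 77 genes, and in 8 they held more than 10% of the gene's own level, so reads may have been split between copies. After MRPS36 these were MRPL3 (397%), MRPS18A (54.8%), MRPL35 (36.7%), MRPS31 (29.8%), MRPL48 (22.0%), MRPS21 (12.5%) and MRPL22 (11.8%). The percents compare TPM, which depends on the length used for each row, and are not shares of reads. With pseudogene rows added, MRPS18A fell in enzalutamide with sgAAVS (-0.60, limma adjusted p = 0.0042), and its changes with sgOGDHL_1 (-0.07, adjusted p = 0.73) and between the guides in enzalutamide (0.30, adjusted p = 0.16) were not called. MRPL35 was higher with sgOGDHL_1 in enzalutamide (0.44, adjusted p = 1.6e-04), and MRPL3 was lower in the libraries labelled sgOGDHL_2 in DMSO (-0.95, adjusted p = 8.2e-09). A gene on the opposite strand overlaps 37 of the 77 in the GENCODE annotation, a protein-coding one in 25 of them, and the sources used here do not say whether counting used strand.

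The rest of the mitochondrial translation pathway was read in the same fits. A first list holds 7 further mitoribosome genes outside the naming rule. It includes MRPS18C, whose letter the rule did not take, and OXA1L, which is not a subunit. In enzalutamide with sgAAVS, 4 of these 7 genes fell and none rose (median -0.18), while 24.8% of all tested genes fell and 23.1% rose. Among the 4 that fell were AURKAIP1 (-0.34, limma adjusted p = 0.011), CHCHD1 (-0.27, adjusted p = 5.8e-04) and PTCD3 (-0.18, adjusted p = 7.9e-04), and DAP3, a GTP-binding small subunit protein, was not called (0.07, adjusted p = 0.11). Of 13 genes of translation factors and related proteins 6 fell and 1 rose (median -0.15), with SLIRP, which stabilises mitochondrial mRNA with LRPPRC (-0.38, adjusted p = 5.2e-04), and the elongation factor TUFM (-0.31, adjusted p = 6.5e-05) among those that fell. Of 24 assembly and rRNA modification genes 5 fell and 3 rose (median -0.01). Of 19 genes of aminoacyl-tRNA synthetases and a tRNA amidotransferase (GATB, GATC and QRSL1) 8 fell and 6 rose (median -0.16). None of 9 genes of mitochondrial transcription and DNA maintenance was called. Of 7 nuclear regulators 4 fell and none rose (median -0.17), among them the coactivator PPARGC1B (-0.59, adjusted p = 1.5e-07) and ESRRA (-0.56, adjusted p = 0.027), while the GABP subunit gene GABPB1 (-0.00, adjusted p = 0.99) and YY1 (-0.10, adjusted p = 0.069) were not called.

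The 80 tested genes of the nuclear-encoded respiratory chain gave 43 lower and 3 higher in enzalutamide with sgAAVS (median -0.20), and the 85 tested cytosolic ribosomal protein genes 8 lower and 14 higher (median 0.00). Of all tested genes 24.8% were lower and 23.1% higher. With sgOGDHL_1 against sgAAVS in enzalutamide, 19 respiratory chain genes were higher and 2 lower (median 0.07), and 4 cytosolic ribosomal protein genes were higher and 20 lower (median -0.08). Of all tested genes 16.3% were higher there and 14.3% lower. In the same comparison, 4 of the 7 further mitoribosome genes were higher and none lower. So were 4 of the 13 genes of translation factors and related proteins, and 4 of the 19 of synthetases and amidotransferase. Assembly genes gave 4 higher and 1 lower of 24, transcription and DNA maintenance genes 1 higher and none lower of 9, and regulators 1 lower and none higher of 7. The interaction of sgOGDHL_1 with enzalutamide was positive in 27 and negative in 2 respiratory chain genes (median 0.18), and positive in 7 and negative in 13 cytosolic ribosomal protein genes (median 0.04). It was positive in 11.6% and negative in 15.2% of all tested genes. Whether a list differed from the shares over all tested genes was not tested. In these comparisons most called respiratory chain genes went the same way as most called mitoribosomal genes; differences between lists were not tested.

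By promoter motif, 13 of the 28 genes with CCGGAAG fell in enzalutamide with sgAAVS, and 18 of the 41 without it, while 24.8% of all tested genes fell. Of the 20 genes with AAGATGGC 6 fell, near that share, and of the 49 without it 25 fell. Of the 13 with TGCGCA 6 fell, and of the 56 without it 25. The printed stretches show the same range: MRPS18A and MRPL58, which fell, hold 1 CCGGAAG each, and MRPL27, which holds 2, was not called (-0.16 ± 0.07, limma adjusted p = 0.072). MRPS34 holds 3 and fell, MRPL17 with 2 copies of TGCGCA fell (-0.16 ± 0.03, adjusted p = 0.0015), and MRPS36 with neither fell. No difference by motif was tested.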

How the data were processed

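Per the labels' protocols, RNA for the 18 libraries was extracted with RNeasy. Poly(A) RNA libraries were prepared with KAPA mRNA HyperPrep and sequenced paired-end on a NovaSeq X Plus, with Bcl2fastq for demultiplexing. STAR and GRCh38 are named in the submitters' processing notes; how reads were assigned to genes is not stated there or in the labels. The deposited table holds the authors' TPM, per the file headers; TPM keeps no read numbers, so depth is unknown and no counting interval is given.

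Here MT- rows were dropped and each library was rescaled to 1000000. The 10345 rows without a gene name (4.24% to 9.68% of TPM) stayed in the rescaling but were not tested. Rows of 32 symbols listed more than once were summed, and 69 rows of 3 symbols with 5 or more rows each were left out, giving 26900 symbols. Genes with at least 1 TPM in at least 3 libraries (16067) were tested on log2(TPM + 1) with limma 3.58.1 (R 4.3.3, trended prior), 1 mean per group over all 18 libraries, 12 residual degrees of freedom and Benjamini-Hochberg adjustment, at 0.05. Tables and figures used Python 3.11.15, numpy 2.4.6, pandas 2.3.3 and matplotlib 3.10.9. The fit was tested on simulated data.

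Named genes were, in each comparison, up to 4 rising and 4 falling members of largest change; the 4 of highest and 4 of lowest level; those of highest and lowest spread; 12 genes in any case (MRPS36, MRPL12, MRPL58, MRPL41, MRPS30, MRPS18A, MRPS18B, MRPL44, MRPL11, MRPS12, MRPS27, MRPS5); and up to 3 called genes per pathway list. Others named are genes whose pattern the text turns on and were picked after seeing their values. The members and lists were chosen with earlier results of these data known. Comparison lists kept RefSeq protein-coding symbols. Alternatives were other pseudocounts and filters, mitochondrial rows kept, median-of-ratios scaling, quantile normalization, fits of a comparison's own libraries, a replicate block, array weights, leaving out each library, and 4 added after seeing the data.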

Additional observations from a re-analysis of the deposited data

Results flagged for a closer look

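The enzalutamide change differed between sgOGDHL_1 and sgAAVS by limma's interaction term in 22 of the 77 genes, 21 positive and 1 negative. Of all tested genes, 11.6% were called positive and 15.2% negative, so the count in both directions together was near the background. The largest were MRPL14 (0.57), MRPL53 (0.50), MRPS26 (0.45), MRPL27 (0.45) and MRPS9 (-0.48). Mitochondrial rows held 73.8% and 69.9% of the TPM in 2 of the 3 sgOGDHL_1 libraries in DMSO, and the part of that share in these values was not tested.

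Between sgOGDHL_2 and sgAAVS the enzalutamide change differed in 48 of the 77 genes by the same term, 36 positive and 12 negative. Of all tested genes, 19.5% were called positive and 43.7% negative, so here too the count in both directions together was near the background. The largest were MRPL3 (0.82), MRPL24 (0.80), MRPL16 (0.75) and MRPL4 (0.67) upward, and MRPL28 (-1.04), MRPL49 (-0.99), MRPL27 (-0.96) and MRPS10 (-0.79) downward. These values use the libraries labelled sgOGDHL_2 in DMSO, in which OGDHL had 6.17 to 7.31 TPM against 4.62 to 4.86 TPM with sgAAVS in DMSO.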

How the results depend on the processing

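Counts are of the 77 genes called in either direction. With the mitochondrial rows kept in the TPM, enzalutamide gave 3 with sgAAVS (37 without those rows), 13 with sgOGDHL_1 (26) and 23 with sgOGDHL_2 (56). In DMSO sgOGDHL_1 gave 68 (27) and sgOGDHL_2 34 (58), in enzalutamide both gave 0 by limma (26 and 7; 2 each at an unadjusted p under 0.05), and the interactions were 1 (22) and 11 (48). Direction turned there in enzalutamide with sgOGDHL_1 for MRPL58 (0.059), MRPL4 (0.062), MRPS30 (0.081) and MRPS5 (0.11), and for sgOGDHL_1 in DMSO for MRPL32 (-0.11), MRPS30 (-0.15), MRPS9 (-0.10) and MRPL42 (-0.15). With array weights the counts were 59 and 46 for enzalutamide with sgAAVS and sgOGDHL_1, 60 and 42 for sgOGDHL_1 in DMSO and in enzalutamide, 20 for sgOGDHL_2 in enzalutamide and 52 for the sgOGDHL_1 interaction. That fit weighted sgOGDHL_1 DMSO replicate 2 at 9.54, against 0.17 and 0.11 for replicates 1 and 3. The mean of that group was then close to the value of replicate 2, and these counts rest on that weighting. Fitted with the libraries of a comparison alone, limma gave 3 for enzalutamide with sgOGDHL_1, 0 for sgOGDHL_1 in DMSO by limma (15 unadjusted), 13 for sgOGDHL_2 in enzalutamide and 14 for the sgOGDHL_1 interaction. A filter at 5 TPM gave 4 for sgOGDHL_2 in enzalutamide. Median-of-ratios scaling turned MRPS18A (-0.076) and MRPL44 (-0.041) for sgOGDHL_2 in DMSO and MRPL44 (0.048) in its interaction; quantile normalization gave -0.12, -0.037 and 0.050. The cause of these shifts was not tested.

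Replicate numbers are shared between groups, but in no pair of groups did all 3 same-numbered pairs of libraries deviate together (r over 0.1); sgOGDHL_1 and sgAAVS in enzalutamide came nearest, at 0.11, 0.05 and 0.09. The replicate block gave 3 called for sgOGDHL_2 in enzalutamide and moved no other count by over 1.5 times.

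Leaving out 1 library at a time gave 30 to 51 for enzalutamide with sgAAVS, 19 to 46 with sgOGDHL_1, 48 to 59 with sgOGDHL_2, 0 to 52 and 53 to 64 for sgOGDHL_1 and sgOGDHL_2 in DMSO, 20 to 36 and 1 to 11 for the same in enzalutamide, and 18 to 48 and 43 to 53 for the interactions. The highest counts of 46, 52, 11 and 48 came without sgOGDHL_1 DMSO replicate 3. In a fit chosen after seeing the data, with that replicate alone in its group, taken to scatter as the other groups do, sgOGDHL_1 in DMSO gave 0 by limma, and in enzalutamide sgOGDHL_1 gave 41 and sgOGDHL_2 16. Then MRPL12 turned to -0.059 in enzalutamide with sgOGDHL_1 and MRPL11 to 0.016 for sgOGDHL_1 in DMSO. Without that group at all the counts were also 41 and 16. Over all alternatives, values of single named genes kept direction and call in 4637 cases, lost the call in 294, gained it in 121 and turned in 16.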
